A study of Mus musculus with 12 samples.

Results

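The D-loop length ladder is a set of mouse mito-piRNAs that share one 5′ end and differ only in where they stop. Its members were all unique sequences that matched the mitochondrial DNA (mtDNA, GRCm39, 16299 bp) without a mismatch, on the reverse strand, with the 5′ end at position 16188 in the D-loop (positions 15423 to 16299). The rule found 10 of the 204 unique sequences listed for the series, with 24490 of 403352 reads (6.07%). The members were chosen by their presence in the files and their place on the mtDNA. The 5′ end was selected on its reads and its level in the cell types, which were already known. The level and lengths of the ladder are therefore given below as a description, and only the fits and permutations over the whole table carry a test. Such a test does not undo the selection, so its p-values between the cell types give the members no independent support.

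Cells came from the gonads of CD1 mouse embryos, female or male, on embryonic days E11.5, E12.5 or E13.5. Gonads of sexed embryos were pooled and split with magnetic beads carrying an anti-CD15 antibody into primordial germ cells (PGCs) and somatic cells (SCs), so every SC library is the fraction left after PGCs were taken out. Each of the 12 conditions (2 cell types, both sexes, 3 days) was sequenced as 1 small RNA library, with no replicate, so a cell type or a sex is compared over 6 libraries and a day over 4 that also differ in the other factors. The files hold only mitochondrial piRNA sequences, so cell identity could not be checked against marker genes.

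The D-loop is the main noncoding stretch of the mtDNA and holds the origin of heavy strand replication and the promoters from which both strands are transcribed as long polycistronic precursors. piRNAs are small RNAs bound by PIWI proteins, best known for silencing transposons in the germ line. Mitochondrial sequences found in piRNA collections are called mito-piRNAs, and their 5′ and 3′ ends show where each sequence starts and stops after trimming.

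The members are shown because they are nested, each holding all shorter ones; capitals mark the bases that each adds to the listed length before it. Read 5′ to 3′, the longest covered chrM:16159-16188 on the reverse strand.
16 nt: gaattgatcaggacat
19 nt: gaattgatcaggacatAGG
20 nt: gaattgatcaggacataggG
21 nt: gaattgatcaggacatagggT
22 nt: gaattgatcaggacatagggtT
23 nt: gaattgatcaggacatagggttT
24 nt: gaattgatcaggacatagggtttG
26 nt: gaattgatcaggacatagggtttgAT
29 nt: gaattgatcaggacatagggtttgatAGT
30 nt: gaattgatcaggacatagggtttgatagtT

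No gene of the GENCODE annotation used here overlapped these positions, and the nearest on the same strand was mt-Tp, the tRNA for proline, at chrM:15356-15422. A transcript is known there, however: the study places the 5′ end of a longer noncoding RNA of the mtDNA, mito-ncR-805, at that of these fragments, and that RNA was not analysed here. Their 3′ ends lay between position 16173 for the 16 nt member and position 16159 for the 30 nt member. Of the 15 lengths from 16 to 30 nt, 5 were listed in no library, namely 17, 18, 25, 27 and 28 nt. On the mtDNA the fragments of 17, 25 and 27 nt would end in A and those of 18 and 28 nt in AG, whereas all 10 listed lengths end in other letters, in T for 16, 21, 22, 23, 26, 29 and 30 nt and in G for 19, 20 and 24 nt. The study's adapter begins with AG, and its trimming removed a 3′ match to the adapter of as little as 1 base. A fragment ending in A that was shortened by that base would be counted as the length before it, and whether reads of the 16, 24 and 26 nt members include such fragments was not tested.

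The same letters were missing elsewhere in the data. Over the 6 other mtDNA 5′ ends with at least 5 sequences, 0 of the 20 lengths that end in A before another base and 0 of the 3 that end in AG were listed in the 11 libraries other than PGCs of females at E13.5. In those libraries 43 of the 53 lengths with other ends were listed, as were 7 of the 9 that end in A before a further A. All 12 of their exactly matching sequences that end in A lie before a further A on the mtDNA.

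The library of female PGCs at E13.5 stood apart in this respect. It listed 11 of those 20 lengths ending in A, and only 4 of its 28 exactly matching A-ending sequences lay before a further A. Sequences ending in A took 38.1% of its reads, against 2.66 to 7.91% in the other 11 libraries, and those ending in C took 6.84%, against 25.6 to 39.5%. It held 30 sequences found in no other library, and it was also the library with the fewest reads of the ladder. Some levels are therefore also given without it, namely between cell types, for the ladder's range in females and for changes within cell types. The 20 nt difference between sexes and the values pooled over days are given only with it. The part of this library's 3′ end profile in its low ladder level was not tested.

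The files held between 16061 and 59545 reads and between 41 and 103 sequences. A sequence below 10 CPM (counts per 1000000 reads) in a library was dropped before deposit, and the lowest count listed was 66 to 109 reads. That is 14.6 to 17.8 reads per 1000000 of the reads left by this filter (rpm), which runs higher than CPM on all reads. A member missing from a library was therefore below about that level, which is not the same as absent. All intervals are 95% Wilson intervals and cover counting error only, since PCR reads without molecular identifiers are not independent molecules.

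In reads over all libraries the most frequent lengths were 20, 26 and 16 nt. No sequence of the data is shorter than 16 nt, and the lengths next to 16 and 26 nt were listed nowhere. Whether trimmed reads of those lengths add to the 16 and 26 nt members was not tested. The 20 nt member had 6512 reads and was listed in 12 of 12 libraries, the 26 nt member 5567 reads in 11, and the 16 nt member 4274 reads in 10. The 19 nt member followed with 2676 reads in 9 libraries. The other lengths were minor, with 1423 reads at 22 nt (9 libraries), 1218 at 21 nt (7), 1026 at 30 nt (7), 839 at 24 nt (6), 566 at 23 nt (5) and 389 at 29 nt (4). The 20 nt member had the most reads in 9 libraries and the 26 nt member in the other 3, which were SCs of females at E11.5 and PGCs of males at E12.5 and E13.5.

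Members were listed in 54 of 60 possible cases in SCs (10 members in 6 libraries) and in 26 of 60 in PGCs. The 16, 19, 20, 21, 22 and 26 nt members were listed in 6 of 6 SC libraries. In PGCs only the 20 nt member was listed in all 6, the 26 nt member in 5, the 16 nt member in 4, the 19 and 22 nt members in 3, the 30 nt member in 2, and the 21, 23 and 24 nt members in 1, which was the library of females at E11.5. The 29 nt member was listed in 0 of 6 PGC libraries and in 4 of 6 SC libraries.

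These gaps were set against the minimum of 10 CPM. For each of the 40 unlisted cases, the reads to be expected were computed from the 20 nt reads of that library and the summed profile of the SC libraries, leaving out the library itself if it was one. The expected reads were under the library's lowest listed count in 38 cases, 33 of 34 in PGCs and 5 of 6 in SCs. The exceptions were the 16 nt member in female PGCs at E12.5, with 148 reads expected against a lowest count of 100, and the 24 nt member in female SCs at E12.5, with 132.5 expected against 87. The number of members listed in a library thus does not by itself show a different set of lengths.

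The level of the whole ladder was more even in SCs than in PGCs, and higher in most pairs. In SCs it was 580 rpm in females and 289 rpm in males at E11.5, 396 and 587 rpm at E12.5, and 642 and 550 rpm at E13.5. In PGCs it was 593 rpm in females and 214 rpm in males at E11.5, 65.0 and 213 rpm at E12.5, and 18.8 and 140 rpm at E13.5. The PGC library of females at E11.5 lay within the SC range, and the other 5 PGC libraries lay below every SC library. As a percentage of the reads in its file, the ladder was higher in SCs in the same number of pairs, 5 of 6, but 4 PGC libraries then lay below every SC library, since male PGCs at E12.5 had 4.20% and male SCs at E13.5 4.19%.

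Mean levels were 207 ± 205 rpm in PGCs and 508 ± 135 rpm in SCs (SD, n = 6 libraries each). On the log2 scale SCs were higher by 1.92, with an SD within cell types of 1.25. They were higher by 0.68 over the 16, 19, 20 and 26 nt members in the 9 libraries that list all of them, a choice made after seeing the data. That choice drops PGC libraries alone, both sexes at E12.5 and females at E13.5, with the lowest levels among them. The 0.68 is thus no check of the 1.92. Without female PGCs at E13.5 the PGC mean was 245 ± 204 rpm (SD, n = 5), and without female PGCs at E11.5 it was 130 ± 87.5 rpm (SD, n = 5). In bulk RNA a lower level in the cells that make a fragment and fewer such cells cannot be told apart.

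When libraries of like sex and age were paired, the SC level was higher in 5 of 6. The ratio of SCs to PGCs was 0.978 in females and 1.35 in males at E11.5. It was 6.09 and 2.76 at E12.5 and 34.2 and 3.92 at E13.5. The lowest ratio after E11.5 was 2.76, and the value of 34.2 rests on the library of female PGCs at E13.5 that stood apart.

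The 20 nt member is the only one measured in every library, so its level does not depend on how missing values are treated. In PGCs it had 1046, 221 and 95 reads in females from the earliest to the latest day and 301, 201 and 210 reads in males. In SCs it had 711, 729 and 968 reads in females and 367, 960 and 703 reads in males. As levels these were 18.8 to 152 rpm in PGCs (median 39.2) and 83.3 to 171 rpm in SCs (median 134), and the cell types overlapped only through female PGCs at E11.5.

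For single members, edgeR's quasi-likelihood test was fitted to the counts of the 97 sequences listed in at least 3 libraries, with cell type, sex and day as factors. Between SCs and PGCs 0 of the 10 members passed an adjusted p of 0.05, while 2.06% of all tested sequences did, and 2 members, of 21 and 29 nt, had an unadjusted p under 0.05. The 20 nt member was higher in SCs by 1.45 ± 0.72 on the log2 scale (SE, level, edgeR adjusted p = 0.530, unadjusted p = 0.0601). Its level difference was 1.19 ± 0.50 without female PGCs at E13.5 (SE, edgeR adjusted p = 0.557) and 1.85 ± 0.76 without female PGCs at E11.5 (SE, edgeR adjusted p = 0.253). The level of the 16 nt member differed by 1.94 ± 1.39 (SE, edgeR adjusted p = 0.870) and that of the 26 nt member by 1.08 ± 1.04 (SE, edgeR adjusted p = 1.00). With each library left out in turn, these differences in level ran from 1.34 (without female PGCs at E12.5) to 3.49 (without female PGCs at E11.5) for 16 nt and from 0.59 (without female PGCs at E13.5) to 1.69 (without female PGCs at E11.5) for 26 nt.

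Other tests of the level gave other counts. By exact permutation of log2(rpm + 1) over all 924 splits, two-sided, 6 members had an unadjusted p under 0.05 and 0 passed after adjustment, as did 0.0% of the 97 sequences; the 20 nt member had an exact permutation p of 0.0108 and an adjusted p of 0.184. The smallest exact permutation p that 6 against 6 libraries allow is 0.00216, so at least 5 of the 97 sequences would have to reach it together for any to pass, and the 0 carries little weight. DESeq2 called 4 members, of 21, 23, 24 and 29 nt, with 14.4% of all sequences called, at adjusted p of 4.22e-05, 0.0146, 0.00229 and 0.0402. Those 4 lengths were listed in at most 1 PGC library, and with missing values set to the lowest count of the library DESeq2 called 0 of the 10 members, with 0.0% of sequences called and 4 members at an unadjusted p under 0.05, an alternative chosen after seeing the data. Sequences whose SC and PGC levels did not overlap made up 0.0% of the 97 with SCs higher and 0.0% with PGCs higher, so no member was among them.

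In SCs the 6 lengths listed in every library had shares with a small spread relative to their means. The share of 20 nt was 26.8 ± 3.90% of ladder reads, that of 26 nt 20.8 ± 1.98%, that of 16 nt 17.9 ± 1.90% and that of 19 nt 11.3 ± 1.66% (SD, n = 6). The 21 and 22 nt members took 5.88 ± 0.889% and 5.86 ± 0.440% (SD, n = 6). With unlisted members at 0, the shares were 2.11 ± 1.69% at 23 nt, 3.96 ± 2.08% at 24 nt, 1.90 ± 1.497% at 29 nt and 3.53 ± 1.93% at 30 nt (SD, n = 6), and each was unlisted in at least 1 SC library. The read-weighted mean length spanned 20.8 to 21.9 nt over the SC libraries, although their ladder reads ranged from 1275 to 4311.

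Single SC libraries had 20 nt shares further apart than counting error, but each condition is 1 library, so the spread between replicates is unknown and no difference between conditions is read from these values. The share of 20 nt was 21.5% (20.1 to 22.9%) in females at E11.5 and 22.5% (21.2 to 23.7%) in females at E13.5. In the other SC libraries it was 28.8% (26.4 to 31.3%) in males at E11.5, 31.1% (29.2 to 33.0%) in females and 29.1% (27.6 to 30.7%) in males at E12.5, and 28.2% (26.4 to 29.96%) in males at E13.5. The SC libraries of females at E11.5 and E13.5 had the lowest values at 20 nt and the highest shares of 21 to 24 nt, 20.5% and 21.7%, against 11.9 to 18.5%.

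PGC shares spread more widely, and few members were listed in most of these libraries. Female PGCs at E13.5 listed 95 reads of the 20 nt member and no other, a share of 100.0%. Female PGCs at E12.5 listed 221 reads of 20 nt and 164 of 26 nt, shares of 57.4% (52.4 to 62.2%) and 42.6% (37.8 to 47.6%). In these libraries a share depends on which members passed the minimum, and in the latter the missing 16 nt member is the exception named above, expected above the lowest count.

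The PGC library with the most ladder reads lay within the SC range at most of the lengths that every SC library lists. Female PGCs at E11.5 listed 9 members, with 25.6% (24.3 to 27.0%) of ladder reads at 20 nt, 22.0% (20.7 to 23.3%) at 26 nt and 17.9% (16.7 to 19.1%) at 16 nt, and its 19 and 21 nt members took 13.53% and 4.70%, each within the SC range. The 22 nt member took 4.63%, below the SC range of 5.45 to 6.43%. Its mean length of 21.3 nt was also within that range. Its missing member was the 29 nt one, for which 91.7 reads were expected against a lowest count of 109.

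To compare shares on equal terms, they were recomputed over the 16, 19, 20 and 26 nt members in the 9 libraries that listed all of them, an alternative chosen after seeing the data. In the 3 PGC libraries these lengths took 24.2 ± 1.497%, 14.0 ± 2.78%, 30.7 ± 2.26% and 31.1 ± 3.31% (SD, n = 3). In the 6 SC libraries they took 23.3 ± 2.08%, 14.7 ± 1.67%, 34.9 ± 3.24% and 27.2 ± 3.06% (SD, n = 6). The cell types overlapped at all 4 lengths. Over all members and libraries the difference in mean length was −0.22 nt (SCs minus PGCs), with an SD within cell types of 0.993 nt, and it was 0.21 nt without male PGCs at E12.5.

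The balance of the 26 nt and 20 nt members set some libraries apart. Reads of 26 nt per read of 20 nt were 0.859 in females and 0.980 in males among PGCs at E11.5, 0.742 and 2.21 at E12.5, and 1.22 in males at E13.5, with 26 nt not listed in females at E13.5. In SCs they were 1.05 and 0.812 at E11.5, 0.656 and 0.686 at E12.5, and 0.905 and 0.636 at E13.5. Male PGCs at E12.5 had the highest ratio of all, 445 reads over 201, with an interval of 1.87 to 2.61 that overlaps no other library's.

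That library was tilted to the long end in other lengths too. Its 30 nt member took 176 of 1101 ladder reads, while this length took 3.92% of the pooled SC reads and 4.45% in female PGCs at E11.5, the other PGC library that listed it. Lengths of 26 to 30 nt made up 56.4% of its ladder and 23.4 to 31.3% of the SC ladders, and its mean length was 23.7 nt. It did not list the 19 nt member. Its ratio of 16 nt to 20 nt reads, 0.731, lay within the 0.520 to 0.800 of SCs, and its 22, 26 and 30 nt members were the ones with shares above the SC range. With 1 library for this condition, the spread between replicates is unknown.

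Shares were also tested over the 70 sequences whose 5′ end had at least 2 tested members, with edgeR's diffSpliceDGE, which asks whether a sequence changed relative to the others of its 5′ end. Between SCs and PGCs 0 of 10 members passed an adjusted p of 0.05, while 1.43% of all sequences did, and 1 member, of 29 nt, had an unadjusted p under 0.05 (share, edgeR adjusted p = 0.146). The share of 20 nt differed by −0.13 ± 1.29 on the log2 scale (SE, edgeR adjusted p = 0.980) and that of 26 nt by −0.50 ± 1.37 (SE, edgeR adjusted p = 0.980). With missing values at the lowest count these share differences turned to 0.64 at 20 nt, 0.087 at 26 nt and, for the 29 nt member, from 7.27 to −0.87 (log2), so no direction is read from them. By exact permutation of the shares 0 members passed, with 0.0% of sequences called and 2 members, of 21 and 24 nt, at an unadjusted p under 0.05. At least 4 of the 70 sequences would have to reach the smallest exact permutation p together for any to pass.

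Males and females overlapped. The level of the ladder was 18.8 to 642 rpm in females (median 488) and 140 to 587 rpm in males (median 252), and that of the 20 nt member was 18.8 to 152 rpm (median 124) and 38.8 to 171 rpm (median 72.6). Without female PGCs at E13.5 the female ladder ran from 65.0 to 642 rpm. The ranges overlapped over most of their length. In edgeR 0 of 10 members passed for level, with 0.0% of all sequences called and 0 members at an unadjusted p under 0.05, and the 20 nt level differed by −0.11 ± 0.69 on the log2 scale (males minus females, SE, adjusted p = 0.955).

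The same was found for shares between the sexes. In edgeR 0 of 10 members passed, with 0.0% of sequences called and 0 members at an unadjusted p under 0.05, and exact permutation, with the same limit, also called 0, with 0.0% called. DESeq2 called 0 members by level between the sexes, with 3.09% of sequences called.

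Over the 3 days pooled across cell types the level overlapped widely too. The ladder was at 214, 289, 580 and 593 rpm at E11.5, at 65.0, 213, 396 and 587 rpm at E12.5, and at 18.8, 140, 550 and 642 rpm at E13.5. The lowest value of each day was that of a PGC library, and the highest was that of an SC library except at E11.5. In edgeR 0 of 10 members passed for level over days, with 0.0% of sequences called and 0 members at an unadjusted p under 0.05 (20 nt level, adjusted p = 0.899), and DESeq2 and exact permutation over 34650 splits called 0, each with 0.0% called. For shares 0 of 10 passed at E12.5 against E11.5 and 0 of 10 at E13.5 against E11.5, with 0.0% of sequences called and 0 members at an unadjusted p under 0.05 in each edgeR comparison.

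Within SCs, the direction of the ladder's change from E11.5 to E13.5 depended on the library total used, while within PGCs it was negative on both totals. On the log2 scale of rpm the later minus the earlier level was −4.98 in females and −0.61 in males among PGCs, and 0.15 in females and 0.93 in males among SCs. On the reads of each file as total, an alternative chosen after seeing the data, all 4 were negative, at −5.60 and −0.49 in PGCs and −0.57 and −0.26 in SCs. In percentages of the file the ladder went from 11.55 to 7.80% in female and from 5.02 to 4.19% in male SCs. Each value rests on a pair of libraries, and the −4.98 rests on the female PGC library at E13.5 that stood apart, with 95 ladder reads. From E11.5 to E12.5, without that library, the differences were −3.19 in female and −0.011 in male PGCs and −0.55 in female and 1.02 in male SCs, with opposite signs in the SCs of the sexes. On the file reads these were −2.40, 0.63, 0.12 and 1.22. In a fit with an interaction of cell type and day, added after these values were seen and tested for E13.5 against E11.5 alone, edgeR called 0 of 10 members, with 0.0% of the 97 sequences called and 1 member, of 22 nt, at an unadjusted p under 0.05. The 20 nt member had an interaction of 2.39 ± 1.33 (log2 level, SCs minus PGCs, SE, edgeR adjusted p = 0.721), and 1.64 ± 1.32 on the file reads (SE, edgeR adjusted p = 0.808), where edgeR also called 0 of 10 members and 0.0% of sequences, with 1 member at an unadjusted p under 0.05. Without female PGCs at E13.5 it was 1.82 ± 1.15 (SE, edgeR adjusted p = 1.00), with 0 of 10 members called, 0.0% of sequences called and 0 members at an unadjusted p under 0.05.

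Just outside the rule fell 3 sequences with the same 5′ end, whose last base did not match the mtDNA and is in capitals here. Together they had 991 reads against 24490 of the members.
19 nt with 1 mismatch: gaattgatcaggacatagA
21 nt with 1 mismatch, first form: gaattgatcaggacatagggA
21 nt with 1 mismatch, second form: gaattgatcaggacatagggC
The first form of 21 nt had 753 reads in 6 libraries, 135 of them in female PGCs at E13.5, where they outnumbered the 95 reads of the only member listed. The second form had 138 reads, in female PGCs at E11.5, and the 19 nt sequence had 100 reads, in male SCs at E13.5. In all of them the mismatch was at the 3′ end, with the 5′ end unchanged.

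The members were also searched for in the nuclear chromosomes of GRCm39, both strands, with up to 1 mismatch. The 16 nt member matched 3 places exactly, chr6:133172018-133172033 between genes, chr7:13851029-13851044 in an intron of Sult2a3, and chr9:36435993-36436008 between genes, and 132 more with 1 mismatch. The 19 and 20 nt members had 1 place each with 1 mismatch, between genes at chr15:15739637-15739656 (the 20 nt match), and the 7 members of 21 to 30 nt had none. All 7 members without a nuclear match share their first 20 bases with the 20 nt member.

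Bases 2 to 8 of the ladder, the positions that form the seed in a miRNA, are shared with 1 of the 1679 mature mouse miRNAs in the RefSeq table (GRCm38.p6). It is shown because it equals the ladder over its first 13 bases, U for T, in capitals.
mmu-miR-6390: GAAUUGAUCAGGAuguaacca
The miRNA lies at chr14:105623710-105623730 on the reverse strand. It departs from the ladder before the 16th base, so none of the members is an exact fragment of it. The study, however, allowed mismatches to miRNAs and names this miRNA as its most frequent mitochondrial sequence of both kinds, miRNA and piRNA. The reads it gives for miRNAs that match both genomes equal those of the 16 nt member (730 in female PGCs at E11.5) in every library but male PGCs at E11.5.

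The other abundant 5′ ends are set beside the ladder for scale. The ladder's median read-weighted length over libraries was 21.3 nt, against 23.4 nt for fragments from the first base of tRNA-SerGCT, 25.9 nt for the 16S rRNA, 19.1 nt for tRNA-SerTGA and 18.6 nt for the 12S rRNA. On log2(rpm + 1) the SC minus PGC difference was 1.91 for the ladder, 0.46 for tRNA-SerGCT, −0.22 for the 16S rRNA, 0.16 for tRNA-SerTGA and −1.18 for the 12S rRNA. In female PGCs at E13.5 the ladder was at its lowest, 18.8 rpm against a PGC median of 176 rpm. The other 4 were at 2152, 2577, 545 and 445 rpm there, against PGC medians of 1982, 1783, 476 and 312 rpm. All these medians include that library. For 3 of the other ends the sign rested on a single library. Female SCs at E12.5 listed no fragment of the 12S end, and without that library its difference was 0.22 and that of the 16S end 0.010, while that of tRNA-SerTGA was −0.46 without female PGCs at E12.5. Leaving out 1 library gave 0.17 to 0.74 for tRNA-SerGCT and 1.36 to 2.34 for the ladder. These differences between 5′ ends were not tested.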

How the data were processed

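Per the labels and the study's methods, the authors trimmed adapters with Trim Galore 0.4.1, merged identical reads, dropped those below 10 CPM, used Bowtie with 1 mismatch allowed, kept sequences matching the mtDNA and a piRNA database, and deposited raw read counts per unique sequence. From these counts, sequences were placed on the mtDNA of GRCm39 and rpm was computed on the total reads over 10 CPM that the study gives for each library. Missing sequences were taken as 0. Levels and shares were tested with edgeR 4.0.16 in R 4.3.3, additive in cell type, sex and day, with Benjamini-Hochberg adjustment over 97 and 70 sequences, and alternatively with DESeq2 1.42.0 and exact permutation tests (numpy 2.4.6, scipy 1.17.1, pandas 2.3.3, Python 3.11.15). The scripts were tested on simulated data, where the share test also called unchanged lengths of 5′ ends at which other lengths had been changed. Each condition is 1 library of pooled gonads, so p-values measure the spread between libraries, which mixes factors. Every member is named by its length. The members and lists were chosen with earlier results of these data known.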

Additional observations from a re-analysis of the deposited data

Results flagged for a closer look

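Over the 53 sets of 4 to 6 libraries examined, 7 held a library far from the others by Dixon's criterion, which chance alone meets in about 1 in 20 sets. The sets share libraries and mix conditions, so the 7 are not independent and serve as a description, with no test. Female PGCs at E11.5 were high among PGCs, with 593 rpm for the ladder (next 214) and 152 rpm for the 20 nt member (next 61.9). Male PGCs at E12.5 had 2.21 reads of 26 nt per read of 20 nt, against at most 0.742 in the other libraries of that day and 1.22 in the next of the male libraries that list both. Among males the same library had a mean length of 23.7 nt (next 21.4) and 18.3% of its ladder at 20 nt (next 28.2%). Among the E13.5 libraries, female PGCs had 100.0% of their ladder reads at 20 nt (next 28.2%), a value that follows from no other member being listed (95 reads, lowest count 90).

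The change of the ladder from E11.5 to E13.5 went opposite ways in the cell types on rpm, with log2 values of −4.98 in female and −0.61 in male PGCs and 0.15 in female and 0.93 in male SCs. With the file reads as library size all 4 were negative, −0.57 in female and −0.26 in male SCs, so the opposite directions rest on the library total used. The first rests on the female PGC library at E13.5 with 95 ladder reads. For the sum over members this difference was not tested. For single members at E13.5 against E11.5, edgeR with missing sequences at 0 called 0 of 10 (1 at an unadjusted p under 0.05) and 0.0% of the 97 sequences. With missing sequences at the lowest count it called 0 of 10 and 0.0% of the 97. There 2 members and 7 of the 97 sequences had an unadjusted p under 0.05, and the 20 nt member had 2.39 ± 1.01 (log2, SE, edgeR adjusted p = 0.540).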

How the results depend on the processing

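The number of members called was 0 in each of the 7 edgeR comparisons, and it stayed 0 in all of them with TMM, other minimums of libraries, missing sequences at the lowest count and each library left out. It was also 0 where the other settings applied, which were file totals as library size (levels) and blocks of like sex and age (SCs against PGCs). Exact permutation also gave 0 (all but the shares over days), but between cell types or sexes 5 of 97 or 4 of 70 sequences would have to reach its smallest p together for any call. DESeq2 called 4 by level between SCs and PGCs, with 14.4% of all sequences called. With the sex-and-age pairs as blocks, the 20 nt level difference was 1.51 (log2), and 2 members by level and 3 by share had an unadjusted p under 0.05. The SC minus PGC ladder level stayed positive, at 1.37 to 2.36 (log2) with each library left out. It was 0.68 over the 16, 19, 20 and 26 nt members where all are listed, which drops PGC libraries alone, the lowest among them, and so is no check. The mean length difference ran from −0.54 to 0.21 nt with each library left out, positive without male PGCs at E12.5. Missing values set to the lowest count moved the 20 nt share difference from −16.2 to 8.32 percentage points. They also turned the level difference of the 23 nt member to −0.013 (−0.043 in DESeq2) and of the 29 nt member to −0.069 (−0.097), and in DESeq2 that of the 30 nt member to −0.0093. The same setting turned the share differences of 20 nt to 0.64, 21 nt to −0.15, 22 nt to −0.27, 23 nt to −0.82, 24 nt to −0.51, 26 nt to 0.087, 29 nt to −0.87 and 30 nt to −0.77 (log2). With each library left out, the 20 nt share ran from −0.41 to 0.035, positive without female PGCs at E12.5, and the 30 nt share from −0.65 to 5.19, negative without PGCs of either sex at E13.5, female SCs at E11.5 or male SCs at E13.5. None of these passed a test. With the file reads as library size the ladder's change from E11.5 to E13.5 in SCs turned to −0.57 in females and −0.26 in males (log2). A minimum of 25 rpm left no ladder reads in female PGCs at E13.5, which drop out there, and members listed in all 12 libraries are the 20 nt one alone, which gives no shares. Depth limits the shares: the lowest level listed was 14.6 to 17.8 rpm, depending on the library, and members below it are not in the counts.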
